A study of Bos taurus with 15 samples.

Results

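The comparison described here sets the post region of engineered meniscal tissue cast in a mold without anchors (unanchored post, 3 libraries) against cells that were embedded in collagen without any mold (no mold, which the submitters also call blobs, 3 libraries). The libraries were chosen by their labelled treatment alone, and they are 6 of the 15 libraries in the series. The other 9 libraries, 3 each from the unanchored middle, anchored post and anchored middle, entered the statistical model, and the unanchored middle and the anchored post also serve for comparison at the end. All groups held bovine meniscal fibrochondrocytes and were collected on day 28, after 3 days in growth medium with 10% fetal bovine serum and 25 days in chondrogenic medium with 50 µg/ml ascorbic acid, 1e-07 M dexamethasone and 10 ng/ml TGF-β3. These additives were common to every group, so no group shows the cells without TGF-β3 or without the glucocorticoid. The mold, the region that was cut out and the shape and size of the tissue differ together between unanchored post and no mold, and their parts cannot be told apart. RNA came from dissected pieces of each region, and no label says that the 3 libraries of a group are 3 separate tissues. The p-values therefore reflect the variation among the libraries at hand, part or all of which may be technical.

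The meniscus is a fibrocartilage: its fibrochondrocytes make a matrix rich in type I collagen together with cartilage molecules such as aggrecan and type II collagen. In cartilage, SOX9 drives the genes of type II, IX and XI collagen, aggrecan and link protein, and TGF-β is a standard inducer of this program in culture. Fibrous tissue is instead marked by type I and III collagen, by small proteoglycans such as decorin that bind collagen fibrils, and by tenascin-C and periostin, and cell tension on a matrix acts through integrins, the actin cytoskeleton and YAP.

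The no-mold libraries held 2060781, 4466562 and 2128257 counts and the unanchored post libraries 5994190, 5100848 and 5744516 (libraries 1 to 3), so every no-mold library was shallower than every unanchored post library, and depth and group cannot be told apart. On the first principal component of the 6 libraries, 43.8% of their variance, no mold scored -31.6, -5.84 and -25.8 and unanchored post 23.6, 14.3 and 25.3. No-mold library 2, the deepest of its group, lay nearest to the post libraries. All 14 listed markers of meniscal fibrochondrocytes had enough counts to be tested, and their summed level was 47087 to 57239 CPM (counts scaled to the library's total) in no mold and 47627 to 55784 in unanchored post. Some defining markers of other cell types were at or near 0 in the summed counts of the 3 no-mold and the 3 post libraries: the endothelial genes CDH5 (0 and 0) and PECAM1 (3 and 3), the Schwann cell gene SOX10 (0 and 0), the muscle gene CKM (1 and 1), the leukocyte gene PTPRC (6 and 3) and the epithelial gene EPCAM (4 and 7). Other members of such lists were plainly counted: the Schwann cell and chondrocyte gene S100B (3675 and 6172.5), the adipocyte gene FABP4 (2146 and 5963), the endothelial gene ERG (634 and 1289.5), the mural cell gene CSPG4 (731 and 1287), the muscle gene DES (120 and 163) and the epithelial gene KRT18 (40.5 and 66). The leukocyte and macrophage genes CD14 (30 and 67), TYROBP (26 and 36) and FCER1G (19.5 and 23) were counted as well. The summed levels of the endothelial, mural, leukocyte, muscle and epithelial lists overlapped between the groups. The adipocyte list was at 275 to 306 CPM in no mold and 357 to 409 in unanchored post, the Schwann cell list at 416 to 445 and 347 to 399.7, and the synovial lining list, which holds PRG4, at 395 to 477 and 319.6 to 378. By edgeR 9.02% of all genes tested passed. In the adipocyte list 1 of 3 tested members did, as lower, in the Schwann cell list 0 of 2 and in the synovial list 1 of 5. Their part in the other results was not tested.

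In all, 1068 of 11834 genes tested differed between unanchored post and no mold at an adjusted p under 0.05 (edgeR quasi-likelihood test, Benjamini-Hochberg), which is 9.02% of them. Of these, 584 (4.93%) were higher and 484 (4.09%) lower in unanchored post. Scaling by library totals alone gave 839 higher and 363 lower, a different split, and moved the median log2 fold change of all genes from -0.01 to 0.05. Most differences were modest, with a median absolute log2 fold change of 0.59 among the called genes. A change of at least 2-fold was reached by 172 called genes (1.45% of those tested), 76 higher and 96 lower. The values of the 3 post libraries did not overlap those of the 3 no-mold libraries for 3548 genes (30.0%). The count of 1068 fell to 601 without no-mold library 1, 503 without no-mold library 3, 532 without unanchored post library 1 and 568 without unanchored post library 3, and 346 genes (200 higher, 146 lower) stayed called whichever single library was left out. Without no-mold libraries 1 and 3 together, the 2 shallow ones, 66 genes were called.

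**Figure D1:**
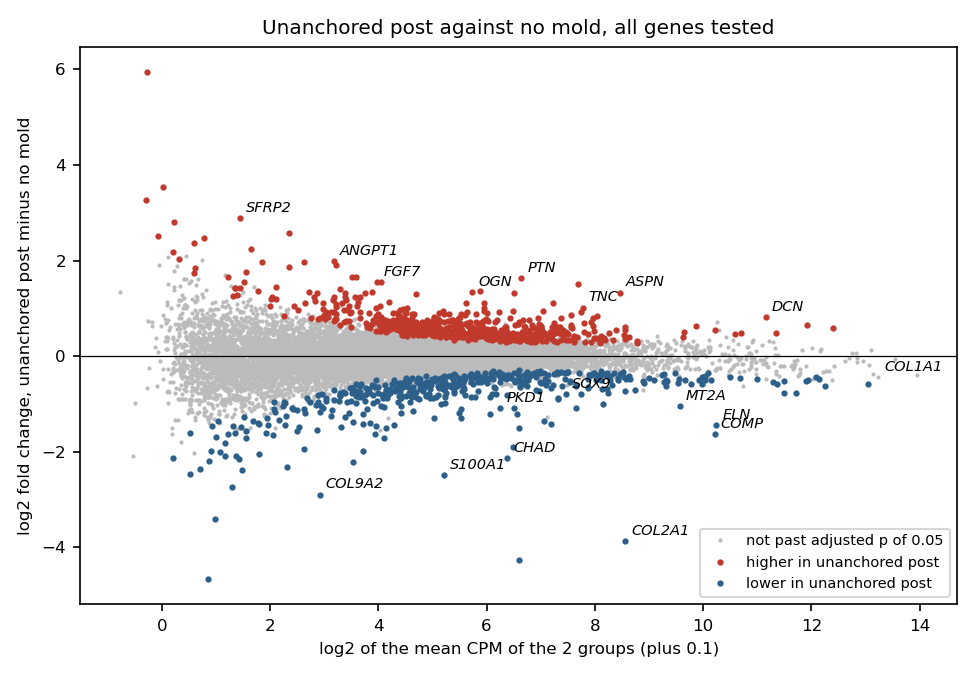
Log2 fold change of unanchored post against no mold (vertical axis) for the 11834 genes tested, by the log2 of their mean CPM over both groups (horizontal axis). Coloured points are the 584 genes higher and the 484 lower at an adjusted p under 0.05. The cartilage genes COL2A1, COL9A2 and CHAD lie among the lower genes, and the fibril-associated genes DCN, ASPN and OGN among the higher genes.

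Cartilage collagens had the lowest median of the gene lists. Of 6 tested members of this list, 4 were lower in unanchored post and 0 higher, with a median log2 fold change of -2.61. Among all genes tested 4.09% were lower and 4.93% higher, and the median was -0.01. COL2A1 (ENSBTAG00000013155), the main fibril collagen of hyaline cartilage, had 864, 750.1 and 510.1 CPM in no mold and 59.7, 65.9 and 19.5 in unanchored post. The groups were far apart, with post library 3 the lowest, and the level was 14.7-fold lower in unanchored post (log2 fold change -3.88 ± 0.40 (SE), edgeR adjusted p = 4.44e-06). In bulk RNA, fewer cells that express a gene and less of its RNA in each cell cannot be told apart. COL9A2, a chain of the type IX collagen that coats type II fibrils, had 14.7, 17.4 and 6.95 CPM in no mold and 1.97, 3.32 and 0.346 in unanchored post (log2 fold change -2.90 ± 0.40 (SE), edgeR adjusted p = 7.76e-05). Its partner chain gene COL9A1 was counted 6, 19 and 5 times in the no-mold libraries and 1, 1 and 0 times in the deeper post libraries (edgeR adjusted p = 0.00260). COL11A2, a chain of the minor fibril collagen XI, fell from 8.05 ± 1.88 to 1.64 ± 0.0845 CPM (SD, n = 3 each; log2 fold change -2.33 ± 0.31 (SE), edgeR adjusted p = 5.66e-05). The low counts of COL9A1 and COL11A2 make the size of their differences imprecise. These 4 genes stayed called under every omission of a library, also without both shallow no-mold libraries.

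Cartilage proteoglycans and glycoproteins were lower as well. Of 9 tested members, 6 were lower and 0 higher, beside 4.09% lower and 4.93% higher among all genes tested. The list's median log2 fold change was -1.09. Chondroadherin, encoded by CHAD, a leucine-rich protein that binds type II collagen and integrin, had 174, 147 and 85.8 CPM in no mold and 35.3, 39.6 and 17.99 in unanchored post, 4.41-fold lower with no overlap (log2 fold change -2.14 ± 0.25 (SE), edgeR adjusted p = 2.17e-05). COMP, the pentameric matrix protein that helps assemble collagen fibrils, had 2599, 1469 and 1317 CPM against 658, 717 and 369 (log2 fold change -1.63 ± 0.29 (SE), edgeR adjusted p = 0.00126). Its no-mold values were spread, with library 1 highest, yet all lay above the post values. Such a lack of overlap, in either direction, held for 30.0% of all genes tested. ACAN, the core protein of aggrecan, had 269, 211 and 158 CPM against 97.1, 95.2 and 46.9 (log2 fold change -1.42 ± 0.27 (SE), edgeR adjusted p = 0.00194). HAPLN1, the link protein that fastens aggrecan to hyaluronan, had 515, 449 and 448 CPM against 284, 293 and 278 (log2 fold change -0.72 ± 0.15 (SE), edgeR adjusted p = 0.00379), and here the post libraries were close to each other. PRG4, the joint lubricant lubricin, had 319, 237 and 270.4 CPM against 157, 137 and 93.6 (log2 fold change -1.09 ± 0.18 (SE), edgeR adjusted p = 6.93e-04), although 80.6% of its counts sat in values that were split among several genes. SCRG1, a gene first described in scrapie and abundant in cartilage, was also lower (log2 fold change -1.38 ± 0.29 (SE), edgeR adjusted p = 0.00422). CILP2, a cartilage intermediate layer protein, missed the threshold (log2 fold change -0.52 ± 0.17 (SE), edgeR adjusted p = 0.0515). Without both shallow no-mold libraries only CHAD of these genes stayed called.

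Among SOX and other chondrocyte transcription factors, 2 of 8 tested members were lower and 0 higher, with a median of -0.51. Shares among all genes tested were 4.09% lower and 4.93% higher. SOX9 (ENSBTAG00000045824), the master regulator of chondrocytes, had 232, 202 and 237 CPM in no mold and 136, 132 and 118 in unanchored post. All 3 post libraries were below all 3 no-mold libraries, and 30.0% of all genes tested had no overlap in either direction. The SOX9 level was lower by 1.73-fold on average (log2 fold change -0.79 ± 0.10 (SE), edgeR adjusted p = 4.54e-05). The homeobox gene BARX1 went the same way (log2 fold change -0.69 ± 0.15 (SE), edgeR adjusted p = 0.00609). SOX5 (-0.38, adjusted p = 0.244) and SOX6 (-0.63, adjusted p = 0.0532), which act with SOX9, did not pass by edgeR. Of 5 tested genes of hypertrophic cartilage and bone, 0 passed (median -0.15). The hypertrophic collagen COL10A1 was below the limit for testing, with 2 counts in each group. SOX9 remained called without both shallow no-mold libraries, BARX1 did not.

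**Figure D2:**
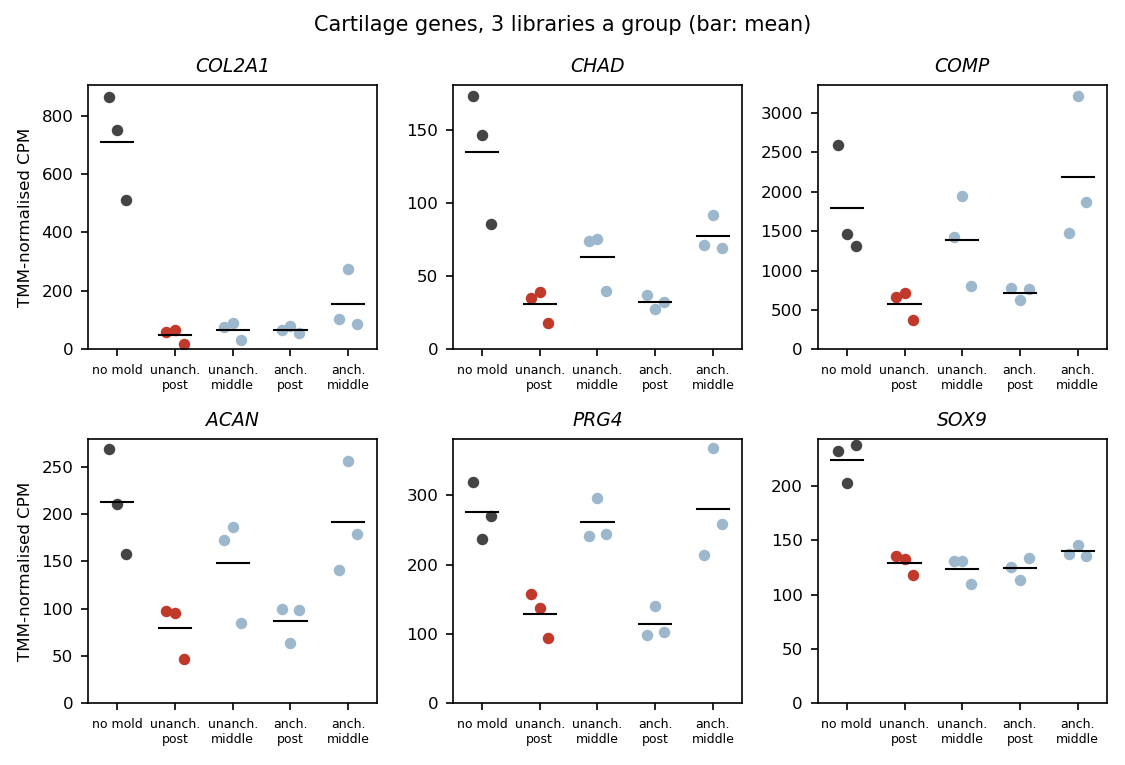
TMM-normalised CPM (vertical axis, from 0) of 6 cartilage genes in each of the 15 libraries, with the mean of each group as a bar; black points are no mold, red points unanchored post and light points the other groups. In every panel the 3 red points lie below the 3 black ones, from 19.5 to 65.9 against 510.1 to 864 for COL2A1. A lack of overlap, in either direction, held for 30.0% of all genes tested.

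Of the 6 tested fibrous collagens 0 passed by edgeR, beside 9.02% of all genes tested, with a median log2 fold change of -0.19. COL1A1, the main collagen chain of the meniscus, had 13929, 10444 and 8775 CPM in no mold and 9202, 9175 and 6045 in unanchored post, and the groups overlapped (log2 fold change -0.44 ± 0.20 (SE), edgeR adjusted p = 0.186). COL1A2 (0.07, adjusted p = 0.815) and COL3A1 (-0.37, adjusted p = 0.162), the other chain of type I collagen and the type III chain, did not pass either by edgeR. The fibronectin gene FN1 did not pass (log2 fold change -0.06 ± 0.14 (SE), edgeR adjusted p = 0.839). Of these genes 61.4% (COL1A1), 34.1% (COL1A2), 46.3% (COL3A1) and 47.4% (FN1) of the counts sat in split values.

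Small leucine-rich proteoglycans, which bind collagen fibrils and limit their thickness, were divided. Of 11 tested members, 4 were higher and 2 lower (median 0.19), beside 4.93% higher and 4.09% lower among all genes tested. DCN (ENSBTAG00000003505), decorin, had 1748, 1687 and 1521 CPM in no mold and 2949, 3058 and 2723 in unanchored post, with every post library above every no-mold library (log2 fold change 0.82 ± 0.10 (SE), edgeR adjusted p = 4.54e-05). Groups without overlap, in either direction, were seen for 30.0% of all genes tested. ASPN, asporin, which binds collagen and TGF-β, had 178, 250.0 and 171 CPM against 562, 385 and 569.7 (log2 fold change 1.33 ± 0.16 (SE), edgeR adjusted p = 2.17e-05). OGN, osteoglycin, had 28.9, 32.0 and 29.3 CPM against 85.5, 75.5 and 68.5 (log2 fold change 1.33 ± 0.16 (SE), edgeR adjusted p = 2.17e-05), a 2.52-fold difference between tight groups. DCN, ASPN and OGN kept the call under every omission, also without both shallow no-mold libraries. The fourth member, KERA, keratocan, was counted 0, 1 and 1 times in no mold and 11, 6 and 8 times in unanchored post, and it lost the call under each single omission except that of post library 2. Biglycan (BGN, -0.48, adjusted p = 0.0326) and prolargin (PRELP, -1.47, adjusted p = 0.0143) were lower by edgeR, but neither call remained without no-mold library 2 or without post library 1, where the count of lower members was 0. The biglycan call was lost under 4 single omissions in total, and it also ended with scaling by library totals. Lumican (LUM), another member, did not pass (log2 fold change 0.14 ± 0.12 (SE), edgeR adjusted p = 0.545).

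Of 12 tested tendon and fibrous tissue genes, 3 were higher and 0 lower (median 0.19), beside 4.93% higher and 4.09% lower among all genes tested. TNC, tenascin-C, a matrix protein of loaded and healing connective tissue, had 125, 179 and 126 CPM in no mold and 356, 276 and 250.4 in unanchored post (log2 fold change 1.02 ± 0.16 (SE), edgeR adjusted p = 4.48e-04). POSTN, periostin, which links collagen and tenascin-C, had 167, 216 and 164 CPM against 335, 277 and 349 (log2 fold change 0.80 ± 0.13 (SE), edgeR adjusted p = 3.77e-04). The other higher member was KERA. The tendon transcription factors SCX (0.03, adjusted p = 0.962) and MKX (0.28, adjusted p = 0.226) did not pass by edgeR, and the tendon gene TNMD had 1 count in no mold and 0 in unanchored post. THY1, a surface protein of fibroblasts, was higher in unanchored post (log2 fold change 0.79 ± 0.12 (SE), edgeR adjusted p = 3.44e-04). TNC and POSTN lost the call without both shallow no-mold libraries, and THY1 did not.

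In the elastic fibre list 1 of 18 tested members was lower and 1 higher (median -0.19), beside 4.09% lower and 4.93% higher among all genes tested. ELN, the elastin precursor, had 2304, 1614 and 1411 CPM in no mold and 757, 790.4 and 413 in unanchored post, 2.72-fold lower without overlap (log2 fold change -1.44 ± 0.26 (SE), edgeR adjusted p = 0.00123). A lack of overlap, in either direction, held for 30.0% of all genes tested. The fibrillin gene FBN2 was the higher member (0.75, edgeR adjusted p = 0.0330), a call that remained only without no-mold library 1 or without post library 3. Of 12 tested basement membrane genes, 4 were higher and 1 lower (median 0.19). COL4A1, a chain of the network collagen IV, had 9.62, 8.23 and 6.95 CPM against 23.1, 20.1 and 19.7 (log2 fold change 1.35 ± 0.28 (SE), edgeR adjusted p = 0.00386). The nidogens NID1 (log2 fold change 0.88 ± 0.17 (SE), edgeR adjusted p = 0.00216) and NID2 (0.48, adjusted p = 0.00416), which bridge laminin and collagen IV, were also higher. The laminin chain LAMB1 was the other higher member (0.46, edgeR adjusted p = 0.00591), and the lower one was COL18A1, the collagen that yields endostatin (-0.88, adjusted p = 0.00596). NID1 alone of these stayed called without both shallow no-mold libraries.

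Genes that process collagen were lower where they passed, beside 4.09% lower and 4.93% higher among all genes tested. Of 23 tested, 4 were lower and 0 higher (median -0.19), but only 1 of them was left without no-mold library 1 and 2 without post library 3. The steadiest was PLOD1, a lysyl hydroxylase that prepares collagen for crosslinking, with 135, 109 and 126 CPM in no mold and 59.7, 61.4 and 51.5 in unanchored post (log2 fold change -1.09 ± 0.18 (SE), edgeR adjusted p = 5.54e-04). Among 19 tested matrix proteases 3 were higher and 0 lower (median 0.05), a count of 2 under 5 of the 6 single omissions and of 4 without post library 2. CTSK, cathepsin K, which cleaves collagen, had 3025, 2996 and 3081 CPM against 4694, 4337 and 5279 (log2 fold change 0.65 ± 0.14 (SE), edgeR adjusted p = 0.00506), and 66.0% of the CTSK counts were split. ADAM9, a membrane protease, was the other steady member (log2 fold change 0.71 ± 0.15 (SE), edgeR adjusted p = 0.00322). Protease inhibitors were lower where they passed, with 4 of 12 lower and 0 higher (median -0.25). TIMP1, an inhibitor of matrix metalloproteinases, had 2948, 3172 and 3415 CPM against 1913, 2204 and 2227 (log2 fold change -0.59 ± 0.11 (SE), edgeR adjusted p = 0.00147), and the cystatin CST6 was lower as well (log2 fold change -0.79 ± 0.15 (SE), edgeR adjusted p = 0.00167). The count of lower inhibitors was 2 without no-mold library 3 or post library 1. All the genes named in these lists lost the call without both shallow no-mold libraries.

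**Figure D3:**
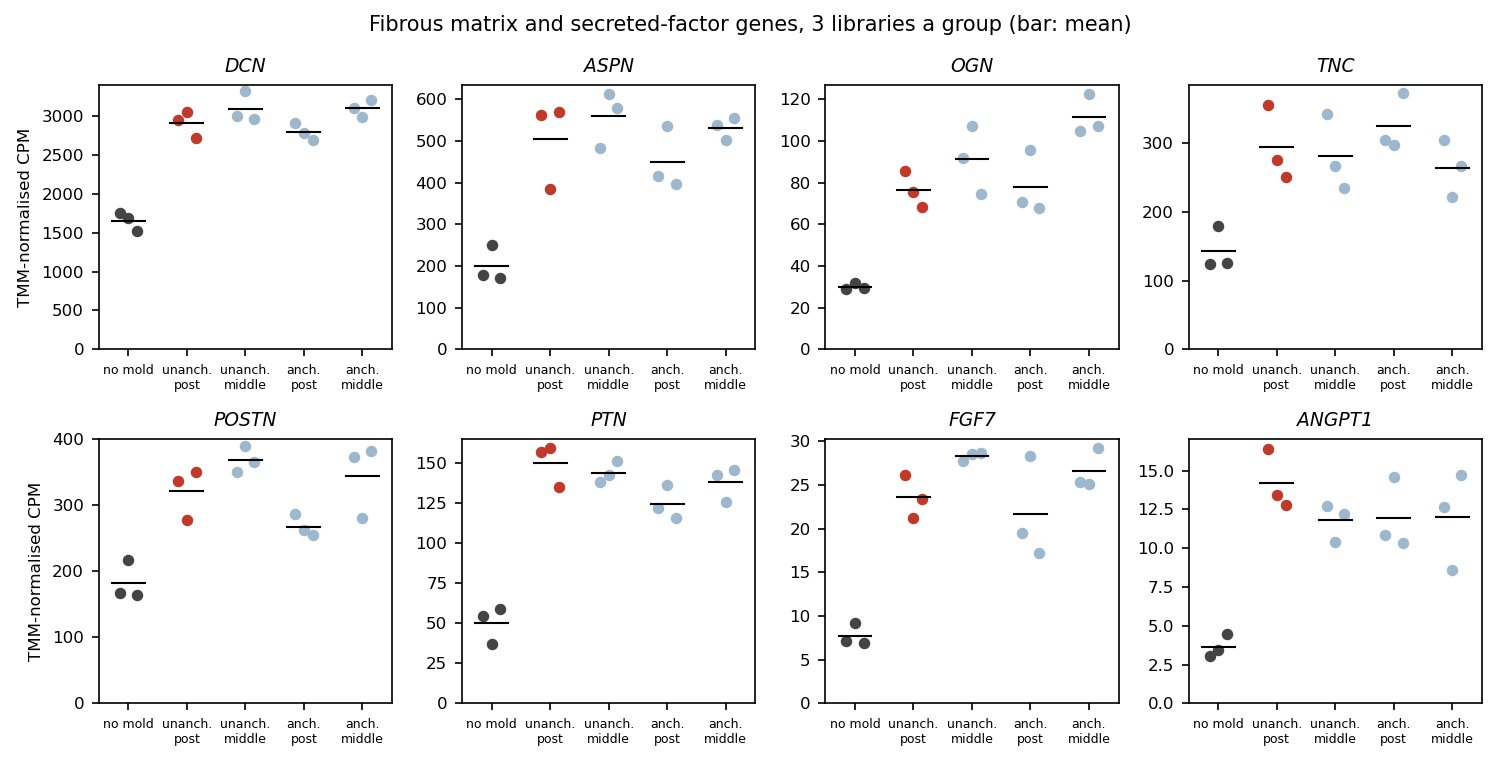
TMM-normalised CPM (vertical axis, from 0) of 8 genes that were higher in unanchored post (red) than in no mold (black) in each of the 15 libraries, with group means as bars and the other groups as light points. The red points lie above the black ones in every panel, for example 2723 to 3058 against 1521 to 1748 for DCN and 12.8 to 16.4 against 3.04 to 4.47 for ANGPT1. A lack of overlap, in either direction, held for 30.0% of all genes tested.

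The cytoskeletal and adhesion lists had 1 to 3 called members each, beside 9.02% called among all genes tested. Of 16 tested contractile genes, 2 were higher and 0 lower (median 0.05). CALD1, caldesmon, which regulates actomyosin, had 742, 773 and 686 CPM in no mold and 1246, 1087 and 1064 in unanchored post (log2 fold change 0.63 ± 0.11 (SE), edgeR adjusted p = 9.25e-04). The classic markers of contractile cells did not pass: the smooth muscle actin ACTA2 had 692, 879 and 757 CPM against 1037, 919 and 813 (log2 fold change 0.25 ± 0.14 (SE), edgeR adjusted p = 0.287), and 85.9% of the ACTA2 counts were split. TAGLN (0.03, adjusted p = 0.925) and CNN1 (-0.62, adjusted p = 0.0510), actin-binding proteins of smooth muscle, did not pass by edgeR. In the list of actin cytoskeleton genes 3 of 20 were higher and 0 lower (median -0.04), among them the actin bundler LIMA1 (log2 fold change 0.70 ± 0.10 (SE), edgeR adjusted p = 2.00e-04) and the tropomyosin TPM4 (0.49, adjusted p = 0.00687). Of 14 integrin genes 1 was lower, ITGA5, the fibronectin receptor chain (-0.40, edgeR adjusted p = 0.0191), and it kept the call only without no-mold library 3 or post library 2 and lost it with scaling by library totals. Of 18 focal adhesion adaptors 1 was lower, the zyxin gene ZYX (log2 fold change -0.61 ± 0.11 (SE), edgeR adjusted p = 0.00167), whose call also remained without both shallow no-mold libraries. Among 24 tested targets and members of the YAP and Hippo pathway 1 was higher and 0 lower (median -0.04), and the target CCN2 did not pass (log2 fold change -0.07 ± 0.11 (SE), edgeR adjusted p = 0.772). CALD1, LIMA1, TPM4 and ITGA5 lost the call without both shallow no-mold libraries.

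Mechanosensitive channels and cilium genes were lower in 4 of 8 tested members and higher in 0, with a median of -0.60. Shares among all genes tested were 4.09% lower and 4.93% higher. PKD1 (ENSBTAG00000020619), polycystin-1, a large membrane protein of the primary cilium, had 106, 99.2 and 105 CPM in no mold and 45.0, 49.2 and 51.7 in unanchored post, 2.12-fold lower between tight groups (log2 fold change -1.08 ± 0.13 (SE), edgeR adjusted p = 2.17e-05). PIEZO1, a stretch-gated ion channel, had 35.4, 32.7 and 29.3 CPM against 21.99, 22.8 and 20.1 (log2 fold change -0.59 ± 0.14 (SE), edgeR adjusted p = 0.00982). SMO, the hedgehog signal transducer of the cilium, was lower by 1.57-fold (log2 fold change -0.65 ± 0.13 (SE), edgeR adjusted p = 0.00260). TRPV4, an osmotically and mechanically gated calcium channel of chondrocytes, had 12.2, 5.03 and 8.44 CPM against 2.46, 3.90 and 2.08 (log2 fold change -1.48 ± 0.34 (SE), edgeR adjusted p = 0.00718). TRPV4 lost the call without no-mold library 1, and of the 4 genes PKD1 alone kept it without both shallow no-mold libraries.

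Secreted growth factors held some of the clearest rises. Of 24 tested genes in the list of FGF and other growth factors, 6 were higher and 3 lower (median 0.09). Shares among all genes tested were 4.93% higher and 4.09% lower. The list's count of higher members was 4 without no-mold library 2, no-mold library 3 or post library 1. PTN (ENSBTAG00000002317), pleiotrophin, a heparin-binding growth factor of developing cartilage and other tissues, had 54.2, 37.0 and 58.6 CPM in no mold and 156, 159 and 135 in unanchored post (log2 fold change 1.63 ± 0.13 (SE), edgeR adjusted p = 1.23e-07). ANGPT1, angiopoietin-1, a ligand of the endothelial receptor TIE2, had 3.04, 3.43 and 4.47 CPM against 16.4, 13.5 and 12.8, 3.95-fold higher (log2 fold change 1.98 ± 0.27 (SE), edgeR adjusted p = 6.51e-05). FGF7, a fibroblast-derived factor that acts on epithelia, had 7.09, 9.14 and 6.95 CPM against 26.1, 21.3 and 23.3 (log2 fold change 1.55 ± 0.21 (SE), edgeR adjusted p = 6.33e-05). No library of one group reached the range of the other for any of these 3 genes. The rule for naming the largest rises required this, and it held for 30.0% of all genes tested. The related FGF10 was higher too (log2 fold change 0.80 ± 0.15 (SE), edgeR adjusted p = 0.00194). Lower by edgeR were, among others, FGFRL1, an FGF receptor without a kinase domain (-1.49, adjusted p = 0.00188) and ANGPTL4, an inhibitor of lipoprotein lipase (-1.27, adjusted p = 0.00739). PTN, ANGPT1 and FGF7 kept the call without both shallow no-mold libraries, and the other named members did not.

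The BMP, Wnt, IGF and TGF-β lists also had called members, beside 9.02% called among all genes tested. CHRDL1, a secreted BMP antagonist, had 4.56, 5.94 and 5.46 CPM in no mold and 16.4, 20.1 and 15.4 in unanchored post (log2 fold change 1.65 ± 0.20 (SE), edgeR adjusted p = 2.55e-05), in a list where 2 of 15 were higher and 2 lower. SFRP2, a secreted Wnt modulator, was counted 1, 2 and 2 times in no mold and 28, 23 and 27 times in unanchored post (edgeR adjusted p = 0.00106), and it was the sole member of 14 Wnt genes to pass. IGFBP2, an IGF-binding protein, had 127, 58.5 and 103 CPM against 209, 262 and 136 (log2 fold change 1.11 ± 0.21 (SE), edgeR adjusted p = 0.00176). Another, IGFBP5, went down, with 23.8, 19.7 and 18.9 CPM against 7.06, 6.24 and 2.25 (log2 fold change -1.99 ± 0.36 (SE), edgeR adjusted p = 0.00135), in a list where 1 of 10 was higher and 2 lower. Of 15 TGF-β ligands, receptors and signal proteins 1 was higher and 1 lower, and of 14 feedback and target genes 1 was higher, the feedback regulator SKIL (0.88, edgeR adjusted p = 0.00553), which lost the call without no-mold library 2. The target TGFBI had 26.3, 25.1 and 21.3 CPM against 8.86, 10.7 and 5.53 without overlap but missed the threshold (log2 fold change -1.55 ± 0.50 (SE), edgeR adjusted p = 0.0541). A lack of overlap, in either direction, held for 30.0% of all genes tested. CHRDL1, SFRP2 and IGFBP2 stayed called without both shallow no-mold libraries, IGFBP5 and SKIL did not.

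Genes induced by low oxygen and those of glycolysis were mostly lower where they passed. Of 20 tested hypoxia-response genes, 7 were lower and 1 higher (median -0.33), and of 21 glycolysis genes 9 were lower and 1 higher (median -0.49). The lists share members, and among all genes tested 4.09% were lower and 4.93% higher. ADM, adrenomedullin, a peptide that dilates vessels, had 74.9, 57.1 and 56.1 CPM in no mold and 30.2, 31.2 and 19.9 in unanchored post (log2 fold change -1.20 ± 0.22 (SE), edgeR adjusted p = 0.00157). ERO1A, an oxidase of the endoplasmic reticulum, had 55.2, 45.5 and 49.1 CPM against 26.4, 23.8 and 24.9 (log2 fold change -0.98 ± 0.20 (SE), edgeR adjusted p = 0.00281). NDRG1, a stress-response gene, had 316, 253 and 294 CPM against 183, 182 and 181 (log2 fold change -0.66 ± 0.11 (SE), edgeR adjusted p = 7.53e-04). For all 3 genes every post library was below every no-mold library. Groups without overlap, in either direction, were seen for 30.0% of all genes tested. The glucose transporters SLC2A3 (log2 fold change -1.39 ± 0.30 (SE), edgeR adjusted p = 0.00505) and SLC2A1 (-0.52, adjusted p = 0.00679) and the hexokinase HK1 (-0.61, adjusted p = 0.00390) were lower as well by edgeR. The higher member HIF1A, a subunit of the oxygen-regulated factor itself, had 0.39 (edgeR adjusted p = 0.0331) and kept the call only without no-mold library 2 or post library 2. VEGFA, a textbook hypoxia target, did not pass (log2 fold change -0.31 ± 0.22 (SE), edgeR adjusted p = 0.430), and GAPDH missed the threshold (-0.62, adjusted p = 0.0541, with nearly all counts in split values). The lower hypoxia genes numbered 4 without no-mold library 1, no-mold library 3 or post library 3. The lower glycolysis genes numbered 3 without no-mold library 1, no-mold library 3, post library 1 or post library 3, and 0 in both lists without both shallow no-mold libraries.

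Redox and metal-binding genes were also lower where they passed. Other stress lists were mixed, beside 4.93% higher and 4.09% lower among all genes tested. Of 20 genes of ER chaperones and the unfolded protein response 2 were higher and 1 lower. Of 13 heat shock and cytosolic chaperones 1 was higher and 3 lower, and of 17 genes of p53 and apoptosis 1 was higher. The called heat shock genes numbered 2 without no-mold library 1 or no-mold library 3, 1 without post library 1 and 0 without post library 3, and those of the ER list numbered 1 without post library 3. Without both shallow no-mold libraries the ER list had 1 called member and the other mixed lists 0. Of 20 tested NRF2 and redox genes 6 were lower and 0 higher (median -0.29). HMOX1, heme oxygenase 1, had 243, 188 and 193 CPM in no mold and 114, 111 and 113 in unanchored post, with tight post values (log2 fold change -0.88 ± 0.14 (SE), edgeR adjusted p = 4.50e-04). FTH1, the ferritin heavy chain, was lower too (log2 fold change -0.77 ± 0.12 (SE), edgeR adjusted p = 2.43e-04), but all or nearly all of its counts sat in split values. Of the redox genes 2 remained without no-mold library 3, 3 without post library 3 and 4 without no-mold library 1 or post library 1. Metallothioneins, small zinc-binding proteins, were lower in 2 of 5 tested genes of metal transport (median -0.03). MT2A had 929.6, 1008 and 1129 CPM against 509, 531 and 446 (log2 fold change -1.05 ± 0.15 (SE), edgeR adjusted p = 1.17e-04), and MT1A had 188, 221 and 216 CPM against 126, 114 and 93.7 (log2 fold change -0.91 ± 0.13 (SE), edgeR adjusted p = 2.00e-04). The groups did not overlap, as was so for 30.0% of all genes tested. Both calls remained without both shallow no-mold libraries, and 94.5% (MT2A) and 69.8% (MT1A) of the counts sat in split values. HMOX1 and FTH1 lost the call there.

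Immediate early genes, which respond quickly to outside signals, were lower in 5 of 19 tested members and higher in 0 (median -0.26). All genes tested were lower in 4.09% and higher in 4.93% of cases. FOSL1, a subunit of the AP-1 factor, had 31.4, 28.3 and 37.2 CPM in no mold and 16.1, 18.5 and 18.9 in unanchored post (log2 fold change -0.83 ± 0.15 (SE), edgeR adjusted p = 0.00115). It was the member whose call did not depend on a single library: 1 member remained without no-mold library 3 or post library 3, 2 without no-mold library 1 or post library 1 and 3 without no-mold library 2. Of 13 inflammation genes 3 were lower and 0 higher (median -0.41), with 0 left without post library 1 and 1 without no-mold library 1, no-mold library 2 or post library 3. Of 14 glucocorticoid-response genes 1 was higher and 3 lower (median -0.31), with 1 lower left without no-mold library 1, no-mold library 3 or post library 1. FOSL1 lost the call without both shallow no-mold libraries.

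Among 16 tested S100 proteins and annexins, which bind calcium, 2 were higher and 4 lower (median -0.08). Shares among all genes tested were 4.93% higher and 4.09% lower. S100A1 (ENSBTAG00000005163), an S100 protein of chondrocytes and muscle, had 71.4, 75.0 and 41.7 CPM in no mold and 13.8, 13.1 and 7.26 in unanchored post, 5.62-fold lower (log2 fold change -2.49 ± 0.27 (SE), edgeR adjusted p = 9.97e-06). S100A2 had 121, 126 and 150.3 CPM against 52.8, 49.4 and 68.3 (log2 fold change -1.21 ± 0.21 (SE), edgeR adjusted p = 8.90e-04), and S100A13, which takes part in the release of FGF1, was lower too (-0.78, adjusted p = 0.00195). ANXA1, an annexin with anti-inflammatory action, was higher (log2 fold change 0.55 ± 0.11 (SE), edgeR adjusted p = 0.00386). S100A1 alone of these kept its call without both shallow no-mold libraries. In Notch signalling, 2 of 9 tested genes were lower and 0 higher (median -0.13): the ligand gene JAG1, with 21.8, 16.9 and 17.9 CPM against 7.22, 9.95 and 8.82 (log2 fold change -1.10 ± 0.19 (SE), edgeR adjusted p = 6.88e-04), and RBPJ, the DNA-binding partner of Notch (-0.53, adjusted p = 0.00165, with 66.8% of counts in split values). Of 23 chromatin modifiers 4 were lower, with 1 to 4 left after single omissions. TET2, an enzyme that oxidises methylated cytosine, was the steadiest, with 13.7, 13.9 and 15.9 CPM against 6.73, 4.10 and 4.32 (log2 fold change -1.49 ± 0.25 (SE), edgeR adjusted p = 6.31e-04). JAG1, RBPJ and TET2 lost the call without both shallow no-mold libraries.

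Genes of cell division, protein supply and energy metabolism had called members on both sides, beside 4.93% higher and 4.09% lower among all genes tested. Of 29 tested cell cycle genes 1 was lower and 0 higher (median -0.09), and the proliferation marker MKI67 had 11.1, 9.60 and 4.47 CPM in no mold and 6.56, 6.05 and 4.32 in unanchored post (log2 fold change -0.61 ± 0.36 (SE), edgeR adjusted p = 0.311). Of 34 cytosolic ribosomal protein genes 7 were lower and 0 higher (median -0.24), but 0 remained without no-mold library 1, no-mold library 3 or post library 1, 1 without post library 3 and 3 without post library 2. Of 29 proteasome genes 3 were higher and 0 lower (median 0.03), of 31 nuclear-encoded respiratory chain genes 2 were higher and 3 lower (median 0.03), and of 20 genes of cholesterol synthesis and uptake 2 were lower and 0 higher (median -0.04). Of 13 genes encoded by the mitochondrial genome 1 was higher and 0 lower (median 0.08), and the share of mitochondrial messenger RNA was 1.52% ± 0.186 in no mold and 1.81% ± 0.251 in unanchored post (SD, n = 3 each). Of 19 genes of amino acid supply 0 passed by edgeR.

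**Figure D4:**
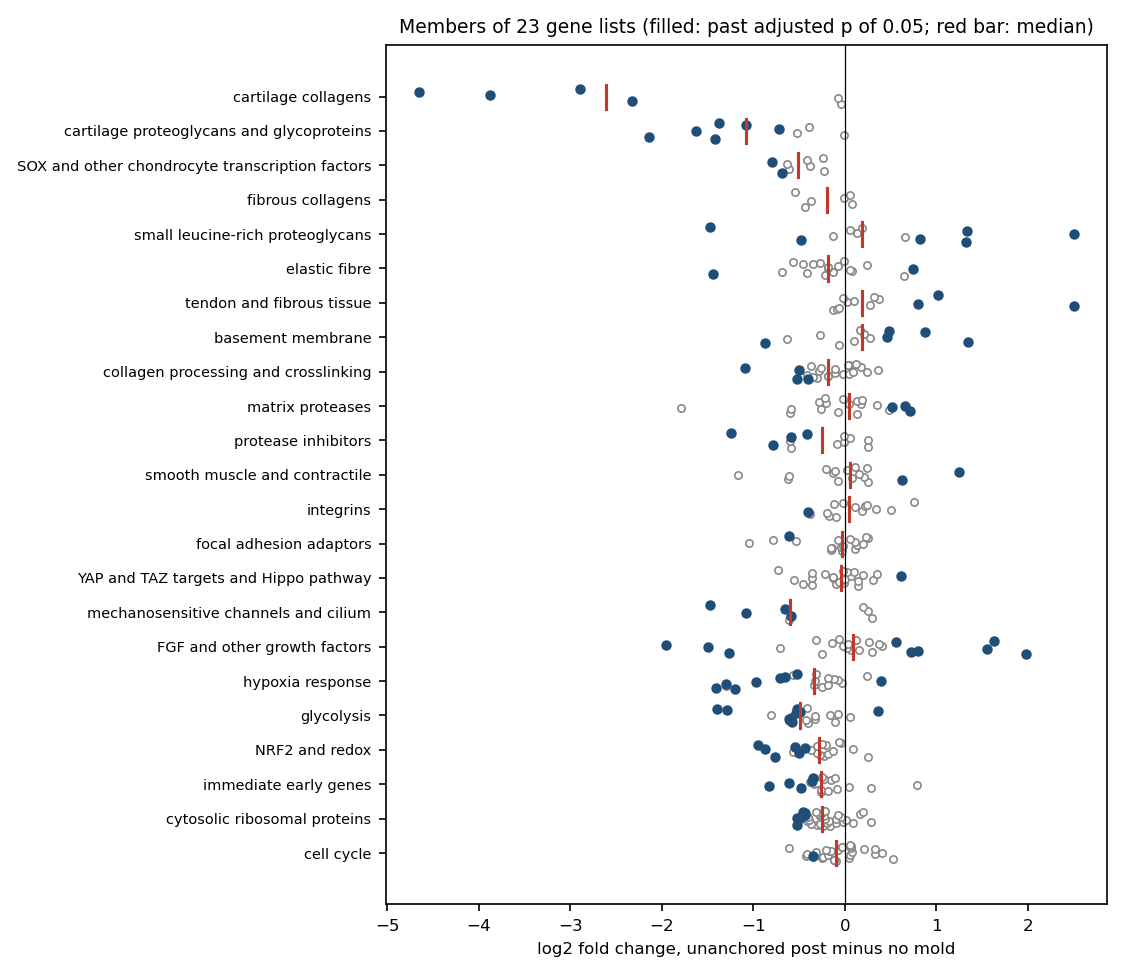
Log2 fold change of unanchored post against no mold (horizontal axis) for every tested member of 23 gene lists (vertical axis); filled points passed an adjusted p of 0.05, open points did not, and the red bar is the list's median. Cartilage collagens (median -2.61) and cartilage proteoglycans and glycoproteins (median -1.09) lie furthest to the left, while fibrous collagens (median -0.19) have no filled point.

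By the naming rule, the 15 largest rises and 15 largest falls among genes with at least 10 CPM in either group and no overlap between the groups held several that belong to none of the lists above. On the higher side was PTX3, a pentraxin of the innate immune response, with 5.57, 1.37 and 6.45 CPM in no mold and 12.5, 15.2 and 14.2 in unanchored post (log2 fold change 1.91 ± 0.34 (SE), edgeR adjusted p = 0.00101). RARRES1, a gene induced by retinoids, had 111, 105 and 106 CPM against 340.3, 314 and 267, with tight no-mold values (log2 fold change 1.52 ± 0.20 (SE), edgeR adjusted p = 6.44e-05). ANGPTL5, an angiopoietin-like secreted protein, had 32.4, 37.0 and 27.8 CPM against 84.7, 76.9 and 93.4 (log2 fold change 1.36 ± 0.13 (SE), edgeR adjusted p = 2.62e-06). The vesicle-trafficking gene SYTL2 (1.66, adjusted p = 1.00e-04), CCDC112 (1.56, adjusted p = 2.61e-04), the mismatch repair gene PMS1 (1.33, adjusted p = 2.04e-04), the centromere gene CENPK (1.41, adjusted p = 0.00115) and DDIT4L, an inhibitor of mTOR signalling (1.32, adjusted p = 0.00289), completed the higher side by edgeR. On the lower side ECM1, a secreted matrix protein of skin and cartilage, had 31.4, 24.9 and 22.8 CPM against 7.55, 9.17 and 7.26 (log2 fold change -1.71 ± 0.28 (SE), edgeR adjusted p = 5.01e-04). SMOC2, a calcium-binding matrix protein, had 195, 133 and 99.7 CPM against 62.8, 60.5 and 27.5 (log2 fold change -1.50 ± 0.31 (SE), edgeR adjusted p = 0.00367). UPP1, uridine phosphorylase, had 32.4, 15.999 and 21.8 CPM against 6.24, 5.66 and 9.34 (log2 fold change -1.64 ± 0.30 (SE), edgeR adjusted p = 0.00124), and R3HDML was lower as well (-1.47, adjusted p = 0.00176). NXPH4 (-1.55, adjusted p = 0.0107) lost the call under 2 of the 6 single omissions, without no-mold library 1 or without post library 3. CENPK, DDIT4L, SMOC2, UPP1 and NXPH4 lost the call without both shallow no-mold libraries.

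Transcripts typical of blood cells and liver were measured beside these results. HBM, a hemoglobin gene, passed as lower in unanchored post (edgeR adjusted p = 0.00806) on 9.5, 13.5 and 3.5 counts in no mold against 1, 3.5 and 0. The blood-cell gene ALAS2 was at 0 in both groups. Other members did not all go the way of HBM. AHSP had 1 summed count in no mold and 11 in the deeper post libraries, HBB 14.25 and 19.5, and HBQ1 12 and 11. The summed level of the red blood cell markers was 5.64 to 8.01 CPM in no mold and 1.39 to 5.29 in unanchored post. Of 5 tested liver transcripts 1 passed, beside 9.02% of all genes tested: APOA1, an apolipoprotein (log2 fold change -1.11 ± 0.18 (SE), edgeR adjusted p = 4.63e-04, 81.1% of counts in split values). In this list 1 of the 5 had a positive log2 fold change, of 0.88. TTR, another member, had 37 summed counts in no mold and 140 in the deeper post libraries. The fetal serum protein gene AFP had 121, 43.2 and 122 CPM against 49.7, 82.5 and 48.6, with overlap (log2 fold change -0.60 ± 0.34 (SE), edgeR adjusted p = 0.287). The summed liver list was 125.5 to 240.4 CPM against 101.4 to 153.3. The part of such RNA in the other results was not tested. Without both shallow no-mold libraries APOA1 kept its call and HBM lost it.

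Whether the difference from no mold depended on the region was tested by setting unanchored post against the unanchored middle of the same kind of tissue, since the no-mold mean is common to both. This contrast called 53 genes (0.448% of those tested), 8 higher in unanchored post (0.0676%) and 45 lower (0.380%), by edgeR. Of the 53, 18 also differed from no mold, 2 higher in both contrasts, 11 lower in both and 5 in opposite directions. Of the 6 cartilage collagens 0 passed between the regions, and COL2A1 had 77.2, 88.5 and 30.7 CPM in the unanchored middle (log2 fold change of post minus middle -0.45 ± 0.39 (SE), edgeR adjusted p = 0.649). A p above the threshold does not show that the levels are the same. SFRP2 was counted 8, 4 and 2 times in the unanchored middle (0.349 to 1.13 CPM, beside 0.457 to 0.992 in no mold) against 28, 23 and 27 in unanchored post (log2 fold change of post minus middle 2.61 ± 0.38 (SE), edgeR adjusted p = 0.00209). PRG4, 1 of 2 among 9 cartilage proteoglycans and glycoproteins to differ between the regions, had 241, 296 and 244 CPM in the middle, within the range of no mold, against 157, 137 and 93.6 in the post (log2 fold change of post minus middle -1.01 ± 0.18 (SE), edgeR adjusted p = 0.0134). PKD1 lay between, with 73.8, 90.1 and 72.2 CPM in the middle (log2 fold change of post minus middle -0.70 ± 0.12 (SE), edgeR adjusted p = 0.0134), and so did DIPK1C, a gene of the divergent protein kinase family, with 28.9, 12.1 and 16.4 CPM in no mold, 11.3, 14.5 and 9.07 in the middle and 4.10, 4.68 and 2.77 in the post (log2 fold change of post minus middle -1.60 ± 0.31 (SE), edgeR adjusted p = 0.0198).

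**Figure D5:**
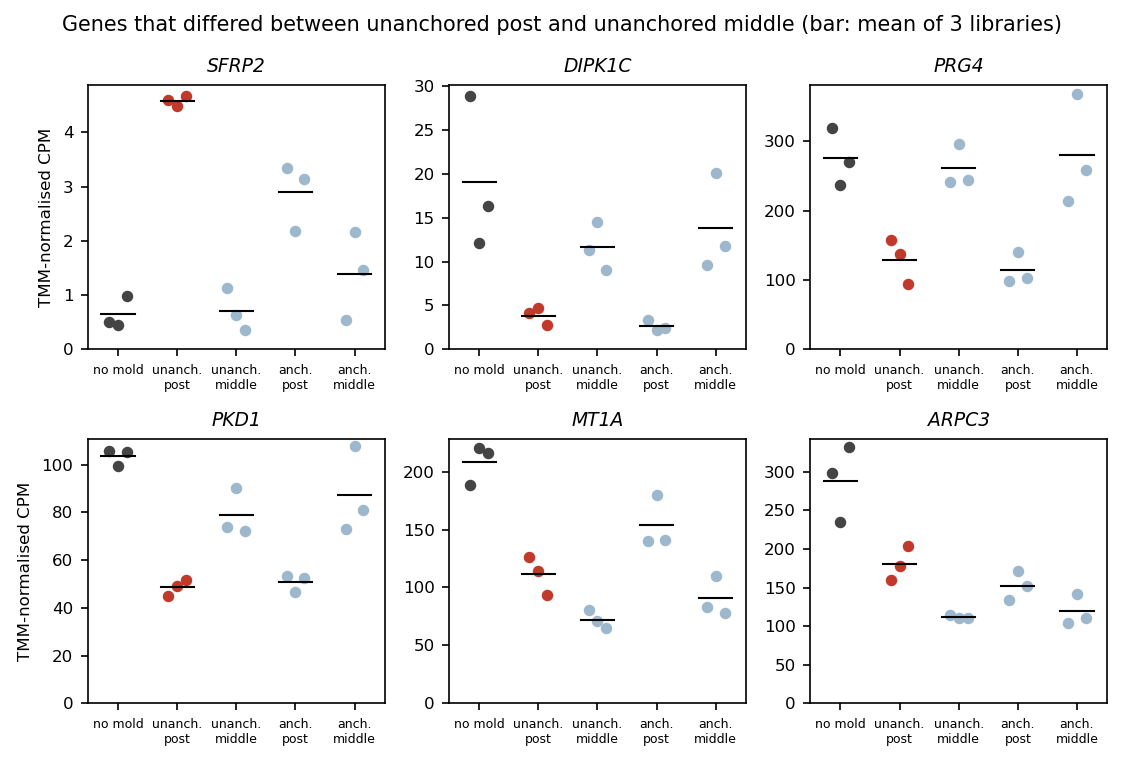
TMM-normalised CPM (vertical axis, from 0) of 6 genes that differed between unanchored post and unanchored middle, in each of the 15 libraries with group means as bars; black is no mold, red is unanchored post and the light points are the other groups. SFRP2 is at 4.49 to 4.67 CPM in the unanchored post, 2.19 to 3.35 in the anchored post and 0.534 to 2.16 in the anchored middle. PRG4 in the unanchored post (93.6 to 157.2 CPM) lies below the unanchored middle (241.5 to 296.3 CPM).

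Other genes lower in the post than in the middle were IGFBP3, an IGF-binding protein, with 1275, 1432 and 1278 CPM in the middle and 714, 778 and 592 in the post (log2 fold change of post minus middle -0.94 ± 0.14 (SE), edgeR adjusted p = 0.00348), although post and no mold overlapped. FGL2, a fibrinogen-like secreted protein, had 28.2, 38.2 and 40.5 CPM in the middle against 17.2, 15.6 and 14.5 in the post (log2 fold change of post minus middle -1.16 ± 0.17 (SE), edgeR adjusted p = 0.00209). HP, haptoglobin, had 12.9, 19.2 and 18.7 CPM against 6.89, 7.61 and 8.47 (log2 fold change of post minus middle -1.14 ± 0.18 (SE), edgeR adjusted p = 0.00386), and its post values overlapped those of no mold. A metallothionein gene and a gene of the actin-nucleating machinery were lower than no mold in the post and lower still in the middle. MT1A had 80.5, 71.3 and 64.9 CPM in the middle (log2 fold change of post minus middle 0.62 ± 0.13 (SE), edgeR adjusted p = 0.0356), and ARPC3, a subunit of the actin-nucleating Arp2/3 complex, had 298, 235 and 332 CPM in no mold, 159.7, 178 and 204 in the post and 114, 111 and 110.4 in the middle (log2 fold change of post minus middle 0.69 ± 0.13 (SE), edgeR adjusted p = 0.0145). This total went from 53 to 14 without post library 1, 24 without post library 2, 7 without post library 3, 14 without middle library 1, 2 without middle library 2 and 134 without middle library 3. Of the 53, only FGL2 and SFRP2 stayed called under each of these 6 omissions. IGFBP3 and HP lost the call without middle library 2, PRG4 without post library 3 or middle library 2, and PKD1 without post library 1 or middle library 2. ARPC3 lost it without post library 3, middle library 1 or middle library 2, DIPK1C without post library 1 or 3 or middle library 1 or 2, and MT1A under every omission except that of post library 3.

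Unanchored post was last set against anchored post, the same region of tissue cast with post anchors. By edgeR 0 of 11834 genes passed (0%), and 454 had an unadjusted p under 0.05. DESeq2 and limma voom also called 0. COL2A1 averaged 48.4 ± 25.2 CPM in unanchored post and 66.6 ± 11.7 in anchored post (SD, n = 3 each; log2 fold change of unanchored minus anchored -0.46 ± 0.39 (SE), edgeR adjusted p = 1.000). DCN averaged 2909.7 ± 171 and 2794 ± 115 CPM (0.06 ± 0.10 (SE), adjusted p = 1.000), and SFRP2 4.58 ± 0.0919 and 2.89 ± 0.618 CPM (0.65 ± 0.29 (SE), adjusted p = 1.000). A result of 0 does not show that the anchors had no effect on these tissues.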

How the data were processed

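Polyadenylated RNA of 15 libraries was captured with an oligo-dT primer that carries a barcode and a molecular identifier and was then tagmented, per the labels' protocols. Such libraries read mainly transcript 3' ends, so values are not divided by gene length. The submitters' processing notes name STAR 2.7, SAMtools 1.21, featureCounts of Subread 2.1.1 and MultiQC 1.33; not given in the sources used here are the build, the annotation and whether molecular identifiers were collapsed. The authors deposited CPM and expected counts for 38001 genes and 92 ERCC spike-ins. The deposited CPM equal the expected count over the library total times 1000000 (largest difference 0). Between 13.5% and 16.3% of a library's nonzero expected counts are not whole (tolerance 1e-06). These are called split values, and genes with many of them are uncertain, as are near-identical copies. Every value column matched 1 sample.

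Expected counts were rounded, spike-ins left out, and genes kept by filterByExpr (minimum count 10, minimum total 15), which left 11834. All 15 libraries entered one quasi-likelihood fit with group means in edgeR 4.0.16 (R 4.3.3) with TMM factors of 0.934 to 1.049, and contrasts were two-sided with Benjamini-Hochberg adjustment over all genes and a threshold of 0.05. The script was tested on simulated data. Per-library values are TMM-normalised CPM, ± after a mean is the SD and after a log2 fold change the SE of the model. In the 6 libraries compared, pairs within a group had a chi-square per degree of freedom of 2.60 to 5.95 over genes, so no library repeated another.

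The comparison and its 62 gene lists (1072 genes, 11 lists of cell type markers) were chosen with earlier results of these data known. Lists are described by counts and medians, without a test. Genes were named by a rule: up to 15 largest rises and falls among called genes with a symbol held by 1 identifier, at least 10 CPM in either group and no overlap; up to 8 called and 3 uncalled members of a list; a panel of 24 cartilage, fibrous and contractile genes; and up to 5 rises and falls for the other contrasts. The panel genes COL10A1, TNMD and MMP13 were below the count filter. Gene symbols come from the deposited table, where 17715 gene rows have none and 2007 share one. Alternatives were DESeq2 1.42.0, limma 3.58.1 voom, other scalings and filters, a fit on the 6 libraries compared, a replicate block, the omission of genes with mostly split values and the omission of libraries.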

Additional observations from a re-analysis of the deposited data

Results flagged for a closer look

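The difference from no mold was not the same for both regions of unanchored tissue for 53 genes, by the edgeR contrast of unanchored post against unanchored middle, and the values here are log2 fold changes of post minus middle. Lower in the post were DIPK1C (-1.60), the ferritin receptor SCARA5 (-1.43), the matricellular gene CCN5 (-1.27), FGL2 (-1.16), HP (-1.14), the cortisol-inactivating enzyme HSD11B2 (-1.04), PRG4 (-1.01), IGFBP3 (-0.94), PKD1 (-0.70), the transcription factor TRPS1 (-0.69) and the cartilage intermediate layer protein CILP (-0.68). Higher in the post were SFRP2 (2.61), ARPC3 (0.69), MT1A (0.62), the acylphosphatase ACYP1 (0.56) and the ubiquitin-conjugating enzyme UBE2B (0.44). SCARA5 passed against both no mold and the middle although 1 post library overlapped no mold: it had 13.7, 6.63 and 10.9 CPM in no mold, 2.95, 6.63 and 4.67 in the post and 10.1, 13.6 and 14.5 in the middle. Its call against no mold (edgeR adjusted p = 0.0334) was lost under 4 of the 6 single omissions, without no-mold library 1 or 3 or post library 1 or 3, and without both shallow no-mold libraries (0.659). CCN5 had 10.6, 4.11 and 8.44 CPM in no mold, 6.40, 8.58 and 4.67 in the post and 15.0, 17.5 and 14.5 in the middle, so that the middle lay above both other groups. Of the genes named here, FGL2 and SFRP2 alone kept the call under each of the 6 omissions of a single library.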

How the results depend on the processing

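For unanchored post against no mold, the 9 alternative scalings, filters, tools and fits gave 865 to 1501 called genes beside 1068, and leaving out 1 library gave 503 to 1075. Without both shallow no-mold libraries 66 genes were called, 65 of them also in the full fit; that fit keeps 1 no-mold library, whose spread is borrowed from the other groups. For unanchored post against unanchored middle, 53 became 272 without the filter on low counts, 125 with DESeq2 and 192 with only the 6 libraries compared, and ranged from 2 to 134 when 1 library was left out. For unanchored post against anchored post, 0 became 21 without the filter and stayed 0 in every other fit that was run. The causes of these shifts were not tested. With the replicate block, 1112, 63 and 0 genes were called in the 3 comparisons. Samples with the same number correlated in their deviations from the group means at -0.01, -0.13 and 0.06 for post and no mold and at 0.09, 0.11 and 0.26 for post and middle. For post and no mold, no label says whether samples of the same number share more than that number. For post and middle each sample correlated best with its own number, a hint from the data and not from the labels, and 1 of these correlations did not exceed 0.1. Of the 118 genes named and tested against no mold, 92 passed, and 31 of them passed under every alternative and omission in which they were tested. No passed gene changed sign. Of the 26 that did not pass, 10 changed sign, all with log2 fold changes near 0 or with a wide error. With library totals CCN2 became 0.00034, CILP 0.061 and FN1 0.0057. CILP also became 0.036 without the filter, 0.0031 with DESeq2 and 0.0029 with the block, and SCX -0.023 with limma voom. Without both shallow no-mold libraries AFP became 0.47, CCN5 0.65, LUM -0.0036, SCX -0.13 and TAGLN -0.053. When 1 library was left out, CCN5 ran from -0.55 to 0.22, CILP from -0.084 to 0.070, COL1A2 from -0.035 to 0.20, FN1 from -0.12 to 0.030, HP from -0.11 to 0.17, SCX from -0.18 to 0.25 and TAGLN from -0.0039 to 0.071. Counting depth limits genes such as COL9A1, KERA, HBM and SFRP2, which had 0 to 3.5 counts in at least 1 library.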
